A study of Homo sapiens with 6 samples.

Results

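SRF, MRTF and YAP are transcription regulators that read the state of the actin cytoskeleton, and 9 of the 61852 genes counted belong to the set described here. They were taken by name, after Ensembl identifiers were matched to symbols, and are SRF, its cofactors MRTFA and MRTFB, the Hippo pathway coactivator YAP1, the cytoskeletal genes VCL and PDLIM7, and CCN1, CCN2 and ANKRD1, the usual reporters of YAP activity. They were measured in poly(A)-selected RNA of MEG-01, an established human megakaryoblast line from chronic myeloid leukaemia in blast crisis. The MELK knockdown group (n = 3) carried the hairpin named sh2-MELK, and the control group (n = 3) carried the pLKO.1 vector. Both groups were of the same line and carried the same batch label, F5, and the knockdown rests on 1 hairpin in 1 line, with no rescue among the samples. The labels call the libraries biological replicates without saying how cultures or transductions were separated, and the p-values here cover only the spread among the 6 libraries, which may be technical.

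SRF is a DNA-binding protein that sits on the CArG box in promoters of cytoskeletal and growth-response genes. MRTFA and MRTFB are held by actin monomers and join SRF on DNA when monomers are drawn into filaments, whereas a separate group of cofactors, the TCF proteins (ELK1, ELK3, ELK4), links SRF to ERK. YAP and its relative TAZ (gene WWTR1) enter the nucleus when the Hippo kinases LATS1 and LATS2 are inactive, and there they bind TEAD factors. Megakaryocytes spread, contract and extend proplatelets through actin and myosin, and in mice SRF and MRTF proteins in these cells are needed for a normal platelet count. None of this regulation is seen directly in RNA levels, because MRTF and YAP are switched by protein location and phosphorylation.

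Promoter windows of 4 of the genes are shown because they hold the CArG box and the TEAD core through which SRF and TEAD factors bind. Each runs from 250 bases before to 50 bases after the RefSeq gene start on GRCh38.p14, 5′ to 3′ on the gene's strand, and capitals mark the motif matches. The SRF window is chr6:43171019-43171318 (plus strand), the VCL window chr10:73997866-73998165 (plus), the CCN2 window chr6:131951323-131951622 (minus) and the ANKRD1 window chr10:90921038-90921337 (minus).
SRF: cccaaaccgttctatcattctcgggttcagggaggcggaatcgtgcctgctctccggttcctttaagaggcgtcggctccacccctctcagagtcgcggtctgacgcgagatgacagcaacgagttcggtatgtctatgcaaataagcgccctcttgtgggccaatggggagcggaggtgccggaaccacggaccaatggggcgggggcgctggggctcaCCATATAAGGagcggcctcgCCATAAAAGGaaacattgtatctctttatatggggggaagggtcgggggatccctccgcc
VCL: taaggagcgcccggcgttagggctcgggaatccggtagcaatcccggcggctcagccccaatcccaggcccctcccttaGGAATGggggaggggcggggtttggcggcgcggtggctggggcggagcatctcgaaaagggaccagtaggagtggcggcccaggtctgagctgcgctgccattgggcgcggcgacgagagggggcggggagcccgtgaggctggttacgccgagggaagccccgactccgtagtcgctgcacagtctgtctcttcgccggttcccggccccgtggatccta
CCN2: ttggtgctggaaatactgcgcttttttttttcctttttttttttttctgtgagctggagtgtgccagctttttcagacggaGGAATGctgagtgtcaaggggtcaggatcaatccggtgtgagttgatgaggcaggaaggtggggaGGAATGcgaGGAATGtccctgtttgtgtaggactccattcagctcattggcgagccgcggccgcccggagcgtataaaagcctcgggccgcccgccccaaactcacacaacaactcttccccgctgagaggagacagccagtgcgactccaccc
ANKRD1: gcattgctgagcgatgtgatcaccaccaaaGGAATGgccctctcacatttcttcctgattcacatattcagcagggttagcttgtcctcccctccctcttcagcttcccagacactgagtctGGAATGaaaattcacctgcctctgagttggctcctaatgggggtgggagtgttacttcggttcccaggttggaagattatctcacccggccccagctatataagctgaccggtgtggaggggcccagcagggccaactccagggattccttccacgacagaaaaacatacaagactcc
The search covered both strands for the TEAD core GGAATG and for the CArG box, and no match overlapped another. SRF's window shown here held 2 CArG boxes, with first bases at -30 and -10 from the start, and its second RefSeq window had no match. Among all 35116 windows 454 (1.29%) held a CArG box, and 11 (0.0313%) held at least 2. CCN2 held 3 TEAD cores at -169, -104 and -95, a number reached by 44 windows (0.125%). ANKRD1 held 2, at -220 and -128, which 478 windows (1.36%) equalled or exceeded. VCL had 1 at -171 and YAP1 had 1 at -162, where 4928 windows (14%) had at least 1. MRTFB had 1 in 1 of its 4 windows, at -83, and no match lay in the windows of MRTFA and PDLIM7. These are matches of letters in a window and not measured binding.

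**Figure D1:**
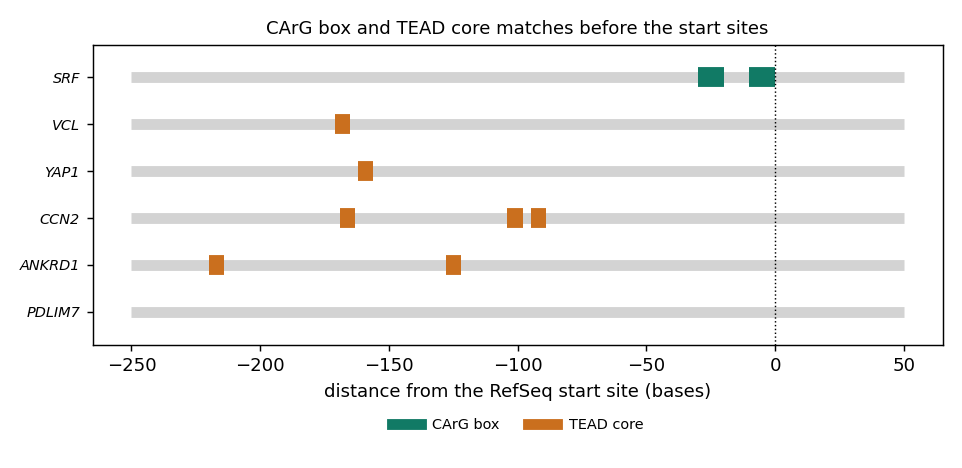
Positions of CArG boxes and TEAD cores in 1 promoter window each of 6 members, in bases from the RefSeq start, with 1 row per gene. SRF has 2 CArG boxes close to the start, and CCN2 (3) and ANKRD1 (2) have the most TEAD cores.

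Deposited counts summed to between 18945176 and 20410845 in the knockdown libraries and between 20208255 and 21711313 in the control libraries. In 35797 genes (57.9%) all 6 values were 0, 1, 2, 10 or 100, each at about an equal share, as if 1 of these 5 numbers had been added to every read count. For genes with few reads a fit of the deposited counts (edgeR's quasi-likelihood test, with genes called at a Benjamini-Hochberg adjusted p under 0.05) is dominated by that number. A second fit, called the added-number model here, treated a value as negative binomial reads with 1 of the 5 numbers on top, and gave estimated reads per library of average size with 95% intervals. Correlations of log2 CPM over well-counted genes (mean of 500 counts or more) were 0.994 to 0.996 within groups and 0.89 to 0.907 between groups. MELK itself had deposited counts of 16, 124 and 26 in the knockdown libraries and 219, 206 and 238 in the control libraries. The groups did not overlap, and for knockdown library 2 the likeliest added number was 100. Its log2 fold change (knockdown over control, as for all below) was -1.98 ± 0.69 (SE) in edgeR with adjusted p = 0.104, and -3.33 with adjusted p = 0.00286 without knockdown library 2. In the added-number model it was -3.39 (95% interval -3.88 to -2.96), with 20.5 estimated reads in the knockdown and 215 in the control.

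Of the 9 genes, VCL and CCN1 rose in the knockdown, MRTFA and PDLIM7 fell, and SRF differed by less than the spread between libraries. ANKRD1 was higher by the added-number model alone, and the few reads of MRTFB, YAP1 and CCN2 did not separate the groups. In edgeR 2 members were called higher, against a background of 2297 of 28303 genes (8.12%), and 2 lower, against 2386 (8.43%), so that 16.5% of all genes tested were called. All 9 passed the filter on low counts, but so did 8895 genes that held nothing except the added numbers. When edgeR was run on the well-counted genes alone, 4 members remained, of which 1 was called higher and 2 lower. There the background was 77% of 5038 genes, 38.1% higher and 38.9% lower, so a call among well-counted genes was the common outcome in this comparison. In the added-number model 3 members were called higher and 2 lower, beside 37.1% of 26055 genes, 18.2% higher and 18.9% lower. The groups did not overlap in 4 members, and in 28% of the genes tested by edgeR.

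**Figure D2:**
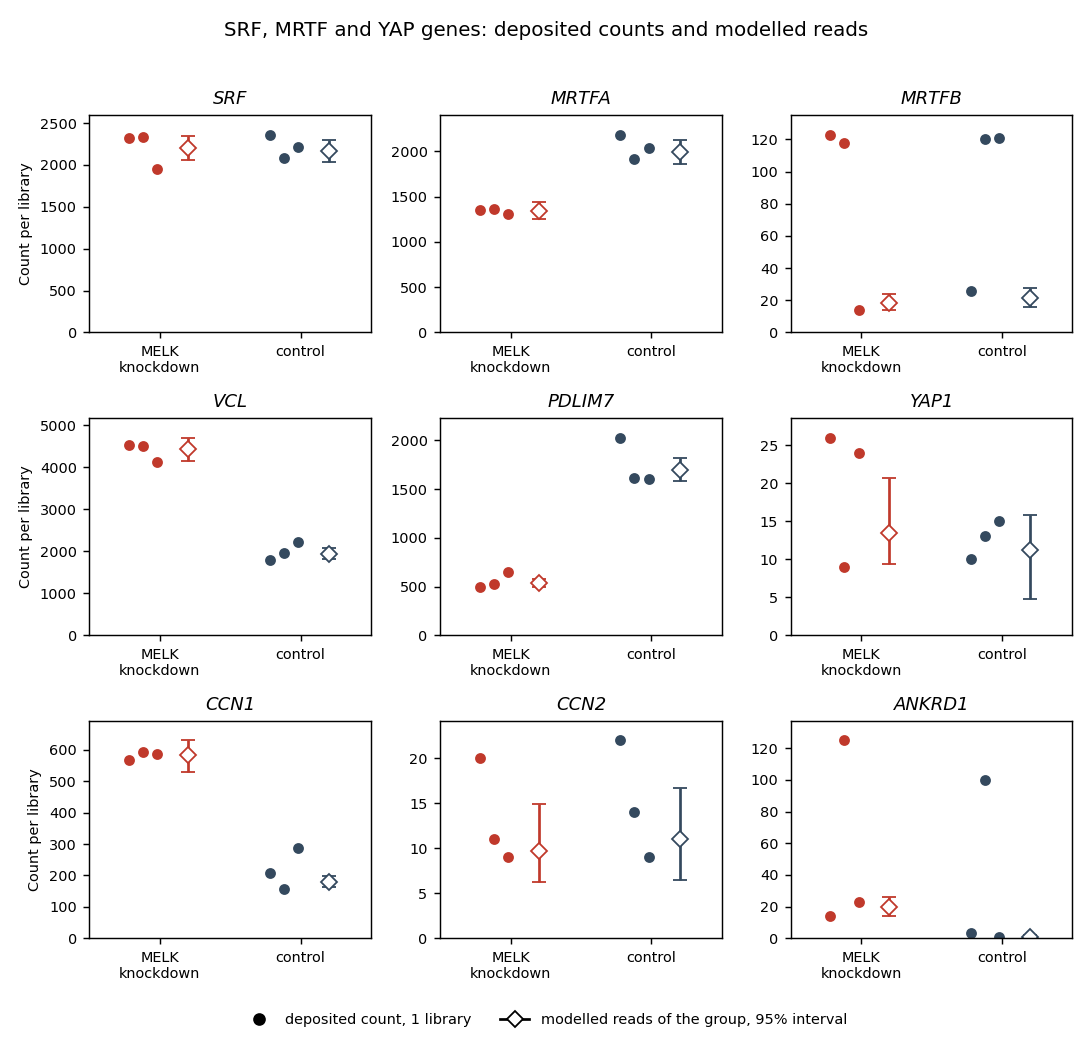
Deposited counts of the 9 members on linear axes from 0, 1 point per library with knockdown left and control right, and the group's estimated reads by the added-number model with their 95% interval as open diamonds. VCL and CCN1 are higher and MRTFA and PDLIM7 lower in every knockdown library than in every control library, whereas the values of MRTFB and ANKRD1 scatter by about the size of the largest added number.

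SRF (ENSG00000112658, GRCh38 chromosome 6, 43171299 to 43181507, plus strand) had counts of 2322, 2333 and 1949 in the knockdown libraries and 2363, 2078 and 2213 in the control libraries. Its level was 112 ± 7.91 CPM in the knockdown and 111 ± 4.52 CPM in the control (SD, n = 3 each). The groups overlapped throughout, with knockdown library 3 the lowest of the 6. The log2 fold change was 0.02 ± 0.06 (SE) in edgeR with adjusted p = 0.919, and the added-number model bounded it between -0.11 and 0.16. SRF transcripts are GC-rich at 60.9%, and the 409 well-counted genes within 1 percentage point of that had a median log2 fold change of -0.25 (5th to 95th percentile -1.18 to 0.46). With the trend of each library along GC content and transcript length taken out, SRF stood at 0.26 ± 0.05 (SE) with adjusted p = 0.00842 in edgeR. Whether SRF was level or slightly higher therefore depended on that correction.

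MRTFA (ENSG00000196588, chromosome 22, 40410281 to 40636702, minus strand) had counts of 1349, 1366 and 1303 in the knockdown libraries and 2184, 1918 and 2031 in the control libraries. All 3 knockdown values lay below all 3 control values, and the knockdown libraries differed little among themselves. The level was 68.5 ± 0.587 CPM in the knockdown and 102 ± 4.42 CPM in the control (SD, n = 3 each), a 1.49-fold fall. In log2 terms it was -0.57 ± 0.04 (SE), with adjusted p = 3.38e-05 in edgeR, and -0.57 in the added-number model (95% interval -0.72 to -0.43). With the GC and length trend removed the fall was smaller, -0.33 ± 0.03 (SE), and still passed in edgeR (adjusted p = 0.000174). The 375 genes of like GC content had a median of -0.25 (5th to 95th percentile -1.20 to 0.43), a range that contains the value of MRTFA. In bulk RNA fewer cells of a type and less RNA per cell cannot be told apart, here and for the genes below.

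MRTFB (ENSG00000186260, chromosome 16, 14071321 to 14266773, plus strand), the second MRTF cofactor, had counts of 123, 118 and 14 in the knockdown libraries and 26, 120 and 121 in the control libraries. Values near 120 and values near 20 occurred in both groups. In 4 of the 6 libraries the likeliest added number was 100, which leaves 18 to 23 reads. The model estimated 18.3 reads (95% interval 13.7 to 23.8) in the knockdown and 21.1 (15.6 to 27.3) in the control. Its log2 fold change was -0.21 (-0.76 to 0.37), with adjusted p = 0.587 in the likelihood-ratio test across genes, and edgeR gave -0.06 ± 0.90 (SE) with adjusted p = 1. On a per-length scale MRTFA averaged 10.5 CPM per kb of exon in the knockdown and 15.6 in the control, and MRTFB 0.258 in the knockdown and 0.27 in the control, with the added number included. MRTFA was thus the MRTF transcript detected at an appreciable level.

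VCL (ENSG00000035403, chromosome 10, 73995193 to 74121363, plus strand) encodes vinculin, which couples integrin adhesions to actin filaments and is a classical SRF target. Counts were 4522, 4512 and 4136 in the knockdown libraries and 1802, 1970 and 2220 in the control libraries. The lowest knockdown library was far above the highest control library. The level was 224 ± 5.14 CPM in the knockdown and 99.6 ± 10.3 CPM in the control (SD, n = 3 each), 2.25-fold higher. The log2 fold change was 1.17 ± 0.07 (SE) in edgeR (adjusted p = 9.04e-06), 1.19 in the added-number model (95% interval 1.05 to 1.32) and 1.01 with the GC and length trend removed. Among 343 genes of like GC content the median was 0.16 and the 95th percentile 1.06. VCL shares 1109 exon bases (11.1% of its exons) with AP3M1 on the opposite strand, and the strand setting of the counting is not given in the sources used here. AP3M1, a subunit of an adaptor complex for vesicle transport, had 497, 501 and 493 counts in the knockdown and 216, 228 and 281 in the control, or 1.08 ± 0.12 in log2 (SE; adjusted p = 0.000357 in edgeR). How far reads of the shared bases link the genes was not tested.

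PDLIM7 (ENSG00000196923, chromosome 5, 177483394 to 177497606, minus strand) encodes an actin-associated PDZ and LIM domain protein, also called Enigma. It had counts of 499, 529 and 649 in the knockdown libraries and 2028, 1614 and 1603 in the control libraries. Every knockdown library was below every control library by a wide margin. The level was 28.7 ± 4.98 CPM in the knockdown and 87.1 ± 10.9 CPM in the control (SD, n = 3 each), a 3.04-fold fall. In log2 terms it was -1.60 ± 0.13 (SE) with adjusted p = 5.51e-05 in edgeR, and -1.67 in the added-number model (95% interval -1.82 to -1.52). PDLIM7 is the most GC-rich member at 64.2%, and with the GC and length trend removed its value was -1.30. The 241 genes of like GC content had a median of -0.22 and a 5th percentile of -1.13, so PDLIM7 lay below that range. VCL and PDLIM7, both actin-linked, thus moved in opposite directions.

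**Figure D3:**
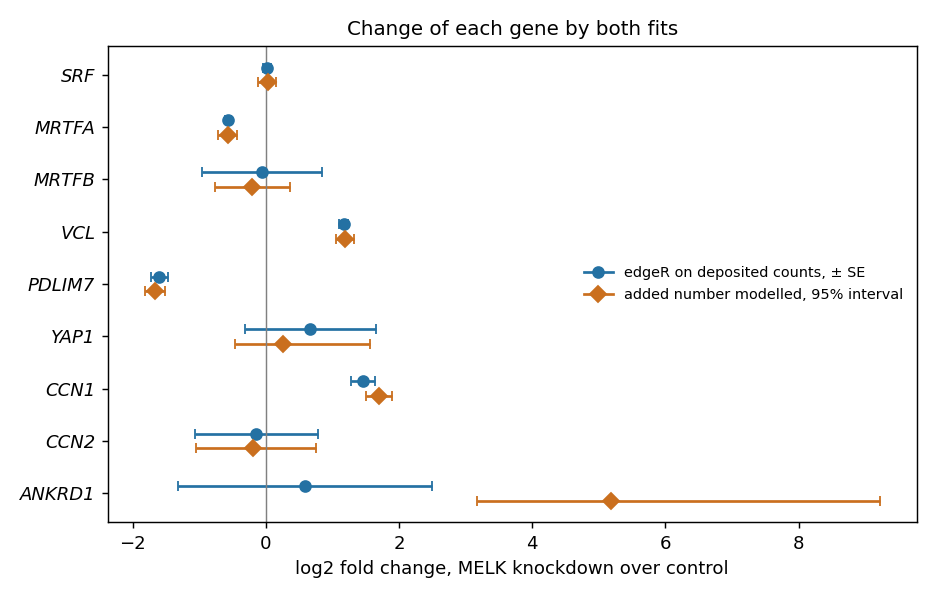
Log2 fold change (knockdown over control) of the 9 members by edgeR (circles, ± SE) and by the added-number model (diamonds, 95% interval). VCL and CCN1 lie above 0 and MRTFA and PDLIM7 below it in both, and ANKRD1 separates from 0 in the added-number model alone.

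YAP1 (ENSG00000137693, chromosome 11, 102110461 to 102233423, plus strand) was scarcely detected. Its counts were 26, 9 and 24 in the knockdown libraries and 10, 13 and 15 in the control libraries, and the groups overlapped. The added-number model estimated 13.4 reads (95% interval 9.32 to 20.7) in the knockdown and 11.2 (4.72 to 15.8) in the control. The log2 fold change was 0.26 (-0.47 to 1.56) with adjusted p = 0.613 across genes in that model, and 0.67 ± 0.98 (SE) with adjusted p = 0.855 in edgeR. A difference of YAP1 within that interval was not detectable at this depth. WWTR1, which encodes the YAP relative TAZ, had 382, 443 and 574 counts in the knockdown and 245, 241 and 339 in the control. Per length this was 2.85 CPM per kb in the knockdown and 1.63 in the control, against 0.161 and 0.1 for YAP1 with the added number included.

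CCN1 (ENSG00000142871, chromosome 1, 85580761 to 85583962, plus strand) encodes a secreted matricellular protein and is a target of both YAP-TEAD and SRF. It had counts of 568, 592 and 586 in the knockdown libraries and 209, 158 and 286 in the control libraries. The knockdown libraries were alike and all above the control libraries, of which library 3 was highest and most likely held an added 100 (186 reads left). The level was 29.8 ± 1.16 CPM in the knockdown and 10.8 ± 2.92 CPM in the control (SD, n = 3 each), 2.75-fold higher. The log2 fold change was 1.46 ± 0.18 (SE) with adjusted p = 0.000608 in edgeR. With the added number modelled it was 1.70 (95% interval 1.51 to 1.89), from 584 estimated reads (530 to 630) in the knockdown and 179 (162 to 198) in the control. The 375 genes of like GC content had a 95th percentile of 1.01.

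CCN2 (ENSG00000118523, chromosome 6, 131948176 to 131951373, minus strand), the paralogous connective tissue growth factor gene whose window carries the 3 TEAD cores, had almost no reads. Counts were 20, 11 and 9 in the knockdown libraries and 22, 14 and 9 in the control libraries, nearly the same values in both groups. The model estimated 9.66 reads (95% interval 6.28 to 14.9) in the knockdown and 11 (6.5 to 16.7) in the control, a log2 fold change of -0.19 (-1.05 to 0.75) with adjusted p = 0.755 across genes. In edgeR the value was -0.14 ± 0.92 (SE) with adjusted p = 1. Whether CCN1 and CCN2 differed in their change was not tested.

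ANKRD1 (ENSG00000148677, chromosome 10, 90912096 to 90921276, minus strand) encodes a muscle ankyrin repeat protein whose transcript is induced by YAP. Its counts were 14, 125 and 23 in the knockdown libraries and 3, 100 and 1 in the control libraries. As deposited the groups overlapped, because knockdown library 2 and control library 2 both carried an added 100 as the likeliest number. What was then left was 14, 25 and 21 reads in the knockdown and 1, 0 and 0 in the control. The model estimated 19.8 reads (95% interval 14.2 to 25.8) in the knockdown and 0.541 (0.0335 to 2.1) in the control, a log2 fold change of 5.19 (3.17 to 9.22) with adjusted p = 1.47e-12 across genes. edgeR on the deposited counts gave 0.59 ± 1.91 (SE) with adjusted p = 0.958. With about 1 control read left in all, the size of the change is loosely bounded. Without control library 1, which held that read, the model's value was 11.30, and without another library it was 4.36 to 5.45, each past the threshold. With no added number in the model it was 0.67 and also passed, but that fit called 18477 of 26055 genes.

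The wider pathway was described with 8 lists holding 126 genes once each, beside the members. In edgeR 109 were tested, of which 21 were higher, 16 lower and 72 not called, with a median log2 fold change of 0.03 against 0.02 for all genes tested, of which 8.12% were higher and 8.43% lower. In the added-number model 121 were tested, with 40 higher, 31 lower and 50 not called, and a median of 0.11 against 0.00 for all genes, of which 18.2% were higher and 18.9% lower. The 28303 genes tested in edgeR include 8895 that held only the added numbers, so their share of calls is a low yardstick. The model's 26055 genes were all those with any value outside the 5 numbers, so they too include genes with few reads. When edgeR was run on the well-counted genes alone, 43 list genes remained, with 20 higher and 16 lower. There 38.1% of all 5038 genes were higher and 38.9% lower. The lists thus held rises and falls side by side.

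Among 8 further partners of SRF, 6 were tested in edgeR, with a median of -0.22. Only 1 was called, and it was lower, where 8.43% of all genes tested were lower. That gene was FHL2, a LIM-only cofactor of SRF, with 1575, 1789 and 1755 counts in the knockdown and 2277, 2357 and 2623 in the control (-0.47 ± 0.07, SE; edgeR adjusted p = 0.00175). The TCF gene ELK1 had 204 ± 4.18 CPM in the knockdown and 200 ± 5.93 CPM in the control (SD, n = 3 each; edgeR adjusted p = 0.763). ELK3 (-0.92) and ELK4 (-0.82) passed in the added-number model and not in edgeR. The 3 TCF genes were named after their values were seen. MYOCD, the muscle cofactor of SRF, and the cardiac factors NKX2-5 and GATA4 held only the 5 numbers in every library. NKX2-5 was nonetheless among the 6 partners tested in edgeR, and so entered their median.

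Of 24 established SRF-MRTF targets, 22 were tested in edgeR, with a median of -0.01. There 2 were higher and 3 lower, against 8.12% and 8.43% of all genes tested. TPM4, a tropomyosin that is abundant in platelets, had 15421, 15987 and 15661 counts in the knockdown and 7898, 8202 and 8816 in the control (0.95 ± 0.05, SE; edgeR adjusted p = 2.82e-06). MYH9, the platelet myosin heavy chain, rose by 0.65 ± 0.03 (SE), and its counts ran from 27691 to 31776 in the knockdown and from 18947 to 20250 in the control. In the other direction stood TPM1 (-1.20 ± 0.24), the calponin gene CNN2 (-0.40 ± 0.06) and the talin gene TLN1 (-0.16 ± 0.03, SE). TLN1 lost its call without knockdown library 3 (-0.16), control library 1 (-0.15) or control library 3 (-0.15), and with the GC and length trend removed it stood at 0.10. In the added-number model 9 of 24 were higher and 7 lower, where 18.2% of all genes were higher and 18.9% lower. The contractile genes of the list moved both ways in that model. ACTA2 (58.1 estimated reads in the knockdown, 19.8 in the control), CNN1 (27.9 and 3.88, in the same order), FLNC (51.2 and 14.1) and FHL1 (231 and 60.2) were higher. TAGLN (30.2 and 61.6, in the same order), TPM2 (43.9 and 79.4) and MYL9 (2.44 and 10.4) were lower. These 7 genes were singled out after their values were seen. None of them passed in edgeR, where FHL1 came nearest (adjusted p = 0.0562) and MYL9 was not tested. A CArG box was found in the windows of 8 of 22 of these targets (36.4%), against 1.6% of all genes with a window. The genes were listed as established SRF targets, so this share describes the list and not the knockdown.

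The 9 immediate early genes reached through SRF and TCF split into 2 higher and 3 lower in edgeR, against 8.12% and 8.43% of all genes tested. Their median was 0.06, and that of the 5 well-counted ones, fitted among well-counted genes alone, was -0.33. MCL1, an anti-apoptotic gene, was higher with 112 ± 3.16 CPM in the knockdown and 62.3 ± 3.93 CPM in the control (SD, n = 3 each; 0.84 ± 0.05, SE). FOSB (-0.77 ± 0.05) and the MAP kinase phosphatase gene DUSP1 (-0.35 ± 0.06, SE) were lower. NR4A1, a nuclear receptor gene, gave 1.01 ± 0.27 (SE; edgeR adjusted p = 0.034) and EGR1, a zinc finger factor, -0.34 ± 0.09 (SE; edgeR adjusted p = 0.0331), and both calls were fragile. For NR4A1 the call was lost without knockdown library 1 (0.76), knockdown library 2 (1.02), control library 1 (0.98) or control library 2 (0.76), and with the replicate number as a block (edgeR adjusted p = 0.0675) or in limma-voom (adjusted p = 0.0741). EGR1 missed the threshold without knockdown library 1 (-0.35), knockdown library 3 (-0.32), control library 1 (-0.33) or control library 3 (-0.32), and with the GC and length trend removed (-0.24) or in limma-voom (adjusted p = 0.0531).

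**Figure D4:**
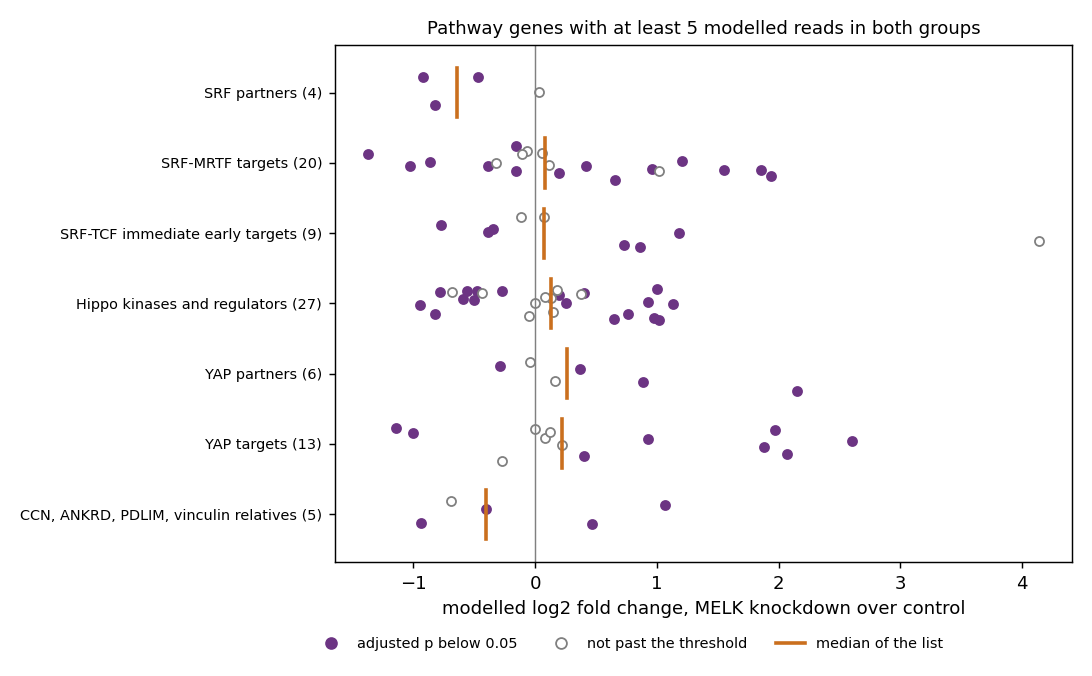
Log2 fold changes (knockdown over control) of the genes of 7 pathway lists by the added-number model, 1 point per gene with at least 5 estimated reads in both groups, filled where the gene passed the threshold, with the median of the genes shown as a line and their number in parentheses. Calls lie on both sides of 0 in every list shown except the SRF partners, and the open point at 4.14 is EGR2, which did not pass.

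On the Hippo side, 28 kinases and regulators were all tested in edgeR, with a median of -0.09. Of these, 7 were higher and 4 lower, against 8.12% and 8.43% of all genes tested. The kinase genes that inactivate YAP were both higher. LATS1 had 489, 480 and 507 counts in the knockdown and 273, 233 and 242 in the control (1.02 ± 0.11, SE; edgeR adjusted p = 0.000201), and LATS2 had 590, 490 and 429 in the knockdown and 333, 254 and 271 in the control (0.85 ± 0.14, SE; edgeR adjusted p = 0.00363). YWHAZ, an adaptor that retains phosphorylated YAP in the cytoplasm, was higher by 1.12 ± 0.06 (SE). MOB1A, a cofactor of the LATS kinases, was lower, with 261, 309 and 291 counts in the knockdown and 594, 519 and 594 in the control (-0.95 ± 0.10, SE). LIMD1 (-0.83 ± 0.06), a LIM protein that restrains LATS, and the kinase gene CSNK1D (-0.56 ± 0.04, SE) were lower as well.

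Of 11 YAP partners, 8 were tested in edgeR, with a median of 0.16. Calls were 2 higher and 1 lower, against 8.12% and 8.43% of all genes tested. WWTR1 was higher by 0.81 ± 0.20 (SE; edgeR adjusted p = 0.0261), and 0.89 (95% interval 0.71 to 1.07) in the added-number model. The edgeR call was lost without knockdown library 2 (0.85), knockdown library 3 (0.56), control library 1 (0.73) or control library 2 (0.68), and with the GC and length trend removed (0.46, adjusted p = 0.184) or in limma-voom (adjusted p = 0.0721). Among the TEAD factors, TEAD4 was the most abundant per length, at 27.6 CPM per kb in the knockdown and 33.7 in the control (log2 fold change -0.29 ± 0.07, SE). Its call was lost without knockdown library 1 (-0.28), control library 1 (-0.23) or control library 3 (-0.28), under the replicate block (edgeR adjusted p = 0.0623), and with the GC and length trend removed (-0.06). TEAD3 had 0.38 ± 0.07 (SE) and missed the threshold without knockdown library 1 (0.34), knockdown library 3 (0.31) or control library 2 (0.32), and with no filter on low counts (adjusted p = 0.0656 in edgeR). TEAD2 was higher in the added-number model, with 72.9 estimated reads in the knockdown and 16.4 in the control, as was TEAD1 with 8.07 and 1.78 in the same order. In edgeR TEAD2 did not pass (0.53 ± 1.13, SE; adjusted p = 0.919), and TEAD1 was not tested there. TEAD1 and TEAD2 were singled out after their values were seen.

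Of 19 YAP targets other than the members, 17 were tested in edgeR, with a median of 0.10. By that fit 3 were higher and 1 lower, against 8.12% and 8.43% of all genes tested. In the added-number model 9 of 18 were higher and 2 lower, with a median of 0.67, where 18.2% of all genes were higher and 18.9% lower. Only 2 of these targets were well counted. When edgeR was run on the well-counted genes alone, 1 was higher and 1 lower, where 38.1% of all genes were higher and 38.9% lower. GADD45A, a growth arrest and DNA damage gene with other inducers as well, had 6299, 6337 and 6869 counts in the knockdown and 1636, 1798 and 1751 in the control (1.95 ± 0.07, SE; edgeR adjusted p = 8.60e-07). NT5E, an ecto-nucleotidase gene, had 264, 237 and 310 counts in the knockdown and 149, 35 and 38 in the control, where 149 lies about 100 above the other control values. Its log2 fold change was 1.92 ± 0.54 (SE; edgeR adjusted p = 0.046), and 2.60 (95% interval 2.30 to 2.93) in the added-number model. With a library left out, the edgeR call of NT5E was kept without control library 1 (2.92, adjusted p = 0.000582) and lost without any other (1.53 to 2.01), and it was lost with the GC and length trend removed (1.66, adjusted p = 0.0939). ASAP1, an Arf GTPase activator gene, was lower (-0.97 ± 0.08, SE). LATS2, also counted in the Hippo list, was the third gene called higher.

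AMOTL2, an angiomotin that binds YAP and is among its targets, was separated between the groups by the model and not by edgeR. Counts were 44, 45 and 49 in the knockdown and 3, 105 and 107 in the control, so that its edgeR value was -0.61 ± 1.39 (SE; adjusted p = 0.919). The model estimated 43.8 reads (95% interval 34.8 to 53.1) in the knockdown and 4.73 (2.66 to 7.67) in the control, a log2 fold change of 3.21 (2.44 to 4.09). MYOF (32.1 estimated reads in the knockdown and 7.64 in the control) and CCDC80 (33.2 and 9, in the same order) were also higher by the model. AXL, a receptor kinase gene, was lower by it, with 10.4 in the knockdown and 22.8 in the control. AMOTL2, MYOF, CCDC80 and AXL were singled out after their values were seen. The TEAD core was found in the windows of 7 of 14 YAP targets (50%), of 10 of 22 SRF-MRTF targets (45.5%) and of 7 of 22 Hippo genes (31.8%), against 16.7% of all genes with a window. A gene counted if any of its windows held a match. These shares describe promoter sequences and not the knockdown, and how far the make-up of the lists accounts for them was not tested.

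Relatives of the members numbered 13, of which 6 were tested in edgeR, 2 higher and 1 lower, against 8.12% and 8.43% of all genes tested. Their median was -0.47, and that of the 3 well-counted ones, fitted among well-counted genes alone, was 0.48. The first median includes genes with few reads, such as PDLIM4 with 12, 1 and 10 counts in the knockdown and 3, 101 and 102 in the control. PDLIM5, a PDZ and LIM protein like PDLIM7, was higher at 70.2 ± 5.76 CPM in the knockdown and 33.2 ± 0.949 CPM in the control (SD, n = 3 each; 1.08 ± 0.07, SE; edgeR adjusted p = 1.33e-05). PDLIM1 was lower (-0.40 ± 0.03, SE), as PDLIM7 was. CTNNA1, the alpha-catenin gene related to vinculin, was higher by 0.47 ± 0.05 (SE).

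GC content moved with the comparison. Members with GC-poor transcripts, such as VCL (45.1%) and ANKRD1 (43.3%), lay among genes with positive medians (0.16 and 0.36), and the GC-rich members SRF, MRTFA and PDLIM7 among genes with negative ones. VCL, CCN1 and PDLIM7 lay outside the 5th to 95th percentile of their GC neighbours, and MRTFA and SRF inside it. For MRTFA the correction reduced the change by more than 1.5 times, and it turned no member's direction that had passed the threshold.

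**Figure D5:**
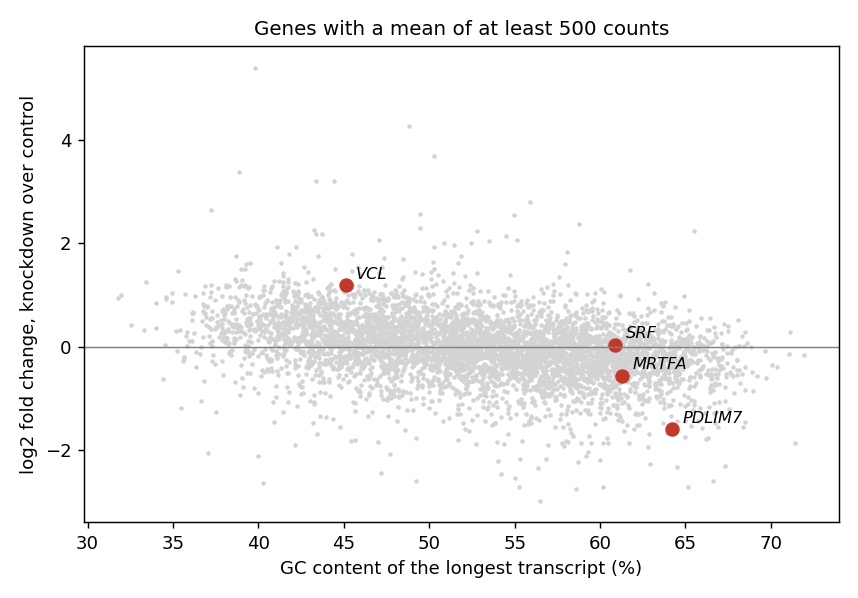
Log2 fold change (knockdown over control) against GC content of the longest transcript in percent for 5038 well-counted genes, with the 4 members among them named. Fold changes decline with GC content, and PDLIM7 lies below and VCL above the bulk of genes at their GC content.

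Marker genes of other cell types were counted because CCN1, ANKRD1 and the contractile genes are typical of stromal cells. The 16 megakaryocyte markers summed to 34165 to 38260 counts in the knockdown libraries and 57193 to 63335 in the control libraries. Most of that sum was ITGA2B, with 20677, 21838 and 19793 counts in the knockdown and 42813, 38101 and 40934 in the control. Of 14 tested in the added-number model, 3 were higher, among them GP6, and 8 lower. The shares over all genes in that model were 18.2% higher and 18.9% lower. At least 50 estimated reads were found for 10 of the 16, and GP1BB and PF4 held only the added numbers. The 10 erythroid markers summed to 9330 to 9761 in the knockdown and 21852 to 23807 in the control. Of these 10, 0 were higher and 8 lower in the added-number model, with a median of -0.90. The 8 endothelial markers summed to 9770 to 10799 in the knockdown and 7804 to 8404 in the control, mostly from PECAM1 and ESAM, and in the added-number model 3 of the 8 were higher and 3 lower, with a median of -1.06. All sums in this paragraph are of deposited counts and include the added number of every gene in every library. Where markers had few reads, as in the stromal and smooth muscle lists, added numbers can make up much of a sum. A difference between such sums is therefore no measure of expression. Fibroblast and stromal markers summed to 303 to 741 in the knockdown and 197 to 388 in the control, with 2 of 10 at 50 estimated reads or more. In the added-number model 3 of these 10 were higher and 1 lower, including PDGFRA with 94.2 estimated reads in the knockdown and 4.92 in the control, and COL1A1 with 66.6 and 22.2 in the same order. The other 6 did not pass in the model, and edgeR called 0 of the 7 it tested. PDGFRA and COL1A1 were singled out after their values were seen. The 6 smooth muscle markers summed to 203 to 238 in the knockdown and 64 to 339 in the control, with MYOCD holding only the added numbers, and 3 of them are also in the list of SRF-MRTF targets. Of 5 tested in the added-number model, 3 were higher and 1 lower. The part of such markers in the values of CCN1, ANKRD1 and the contractile genes was not tested.

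The 3 genes with the most similar profile over the 6 libraries, by the root mean square difference in log2 CPM after each gene's control mean was subtracted, were named for each well-counted member. For MRTFA they were WAS (0.015), RING1 (0.021) and CNPY3 (0.021), and 988 of 5038 genes lay within 0.2. For SRF they were CIZ1 (0.026), RRAS (0.031) and AP5Z1 (0.032), with 1796 genes within 0.2. VCL was nearest to LCP1 (0.054), CD59 (0.059) and HPGDS (0.061), with 173 genes within 0.2. PDLIM7 had the fewest close profiles, 25 genes within 0.2, led by YDJC (0.085), DNPH1 (0.091) and HES6 (0.094). With each gene's control mean subtracted, the measure largely follows the fold change. In edgeR the log2 fold change was -1.50 for YDJC, -1.57 for DNPH1, -1.56 for HES6 and -1.60 for PDLIM7.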

How the data were processed

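RNA-seq libraries of MEG-01 cells (3 MELK knockdown, 3 control) were compared, with groups and replicate numbers taken from the sample titles. The authors deposited a single count table, whole numbers for each gene and raw per the file headers. Per the submitters' processing notes the build was GRCh38 and the tools included STAR, HTSeq, fastp, FastQC, DESeq2 and R 4.3.3. Strand setting and annotation release were not given in the sources used here. Symbols came from the reference tables for 61803 of 61852 genes (99.9%), and coordinates, exons, GC content and length from GENCODE release 29 on GRCh38.

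The deposited counts were fitted with edgeR 4.0.16 (TMM, filterByExpr at a minimum count of 10, robust quasi-likelihood F-test, no block), adjusted over 28303 genes. The SE of a log2 fold change was its size divided by the square root of F. The added-number model used a negative binomial count with dispersion 0.00292 plus 0, 1, 2, 10 or 100 at equal odds, TMM factors of well-counted genes (mean of 500 counts or more), a likelihood-ratio test adjusted over 26055 genes with any other value, and 95% profile intervals. Estimated reads are per library of 20359428 effective counts, and intervals cover counting error and that 1 dispersion only. CPM per kb divides by the union of exons. Motifs were searched in the RefSeq promoter table (GRCh38.p14), which held 8 of the 9 members in 14 windows. CCN1 was not analysed there. The scripts were tested on simulated data drawn with the model's own dispersion and added numbers, which cannot show whether these assumptions hold.

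Alternatives were relative log expression and upper quartile scaling, well-counted genes alone, 5 CPM or more in 3 libraries, no filter at all, DESeq2 1.42.0, limma-voom (limma 3.58.1), the replicate number as a block, each library left out, and, for the model, 4 times the dispersion, library totals as scaling and no added number. Removal of the GC and length trend was added after the data were seen. The members, lists and the added-number model were chosen with earlier results of these data known. Genes named are the members, MELK, the nearest profiles and, per pathway list, up to 3 with the largest rise and 3 with the largest fall that passed both fits. Other genes named were chosen after their values were seen. The genes of 1 of the 8 pathway lists are not reported here one by one.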

Additional observations from a re-analysis of the deposited data

How the results depend on the processing

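VCL, PDLIM7 and MRTFA passed the threshold in all 15 edgeR alternatives and all 9 of the model, and CCN1 in 14 of 14 and 9 of 9. ANKRD1 passed in all 9 model alternatives (0.67 to 11.30) and in none of 13 in edgeR. Its pass at 0.67 came with no added number in the model, a fit that called 18477 of 26055 genes. Without a library, the edgeR values ran from -0.06 to 0.07 for SRF, -0.48 to 0.41 for MRTFB, -0.59 to 0.23 for CCN2 and -0.89 to 4.64 for ANKRD1. The model gave -0.01 to 0.08 for SRF and -2.67 to 2.47 for MRTFB. These genes changed sign among those fits, and TLN1 turned to 0.10 with the GC and length trend removed. The cause was not tested. YAP1 passed only with no added number in the model (0.68, adjusted p = 0.0372).

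The edgeR count of 4683 was 3591 to 3951 with a library left out, where 40268 to 40434 genes were tested, and 6528 in DESeq2. The model's count of 9675 became 18477 with no added number. Pathway genes called were 37 in edgeR and 71 in the model. With the replicate number as a block edgeR called 4182 genes (2062 higher, 2120 lower), and same-numbered libraries deviated with correlations of 0.0997, -0.0124 and -0.0801, so the numbers were not shown to pair libraries. Genes with about 20 reads or fewer are limited by depth and by the added number.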
